A study of Mus musculus with 6 samples.

Results

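The liver X receptors, the transcription factor SREBP-1c and the genes that export sterols from cells were followed in the quadriceps femoris, a thigh muscle, of mice with and without a muscle transgene. The set was chosen by gene symbol: Srebf1, Nr1h2, Nr1h3, Abca1, Abcg1, Mlxipl, Mid1ip1, Mylip, Pltp and Apoe, 10 genes in all. Of these, 9 had at least 1 probe by symbol, 13 probes together, out of 17711 genes named on the array. RNA was measured on an Illumina mouse bead array, where beads bearing a gene-specific probe capture each labelled transcript. The first group was 3 arrays of wild-type C57BL/6 mice. The second was 3 arrays of C57BL/6 mice that carry RORalpha1delDE, a human RORalpha1 shortened by its E region and part of its hinge, under the human skeletal alpha-actin promoter, which is active in skeletal muscle. All mice ate a standard diet with 4.6% fat under a 12 h light cycle, were fasted overnight and were killed at 9 in the morning. For age, sex and the number of founder lines nothing is given in the sources used here. This comparison asks which muscle transcripts of this group differ between the transgenic and the wild-type mice.

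RORalpha is a nuclear receptor that binds DNA as a monomer. The liver X receptors (LXRs) are nuclear receptors that are switched on by oxidised cholesterol and act on DNA together with retinoid X receptors. Their targets include transporters and apolipoproteins that carry cholesterol out of cells, the ubiquitin ligase that removes the LDL receptor, and Srebf1, whose SREBP-1c product drives genes of fatty acid synthesis. ChREBP, made from Mlxipl, drives many of the same lipogenic genes in response to glucose.

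The arrays detected 13979 to 14887 probes each and had median signals of 154.5 to 174.9. Markers of the labelled tissue were present: all 10 skeletal muscle markers were detected and differed by a median of 0.02 on the log2 scale, while 0 of 5 hepatocyte markers passed the detection filter. Within each group, 0 of 5236 bright probes showed a gap above 2-fold between arrays 1 and 2, and their differences at 2 probes of the same gene were nearly unrelated (r = 0.0156 in wild type and 0.0357 in the transgenic group, across 525 genes, which are not independent replicates). Against array 3 of the same group, 55 to 101 of these probes differed by more than 2-fold, with r from 0.689 to 0.758. Arrays 1 and 2 of a group were therefore counted as 1 sample, which left 2 samples per group. Transgenic array 3 stood apart in slow-fibre genes, whose median relative to wild type was -4.80 on the log2 scale there and 0.61 in the other two transgenic arrays.

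Detection divided the set. Probes of Nr1h3, Abcg1, Mlxipl, Mid1ip1 and Apoe were detected on all 6 arrays at a detection p-value under 0.05, and a probe of Pltp on 3. These 6 probes passed the filter of detection on at least 3 arrays and were tested. The other 7 probes were not tested: 6 were detected on no array, and the second Nr1h3 probe on wild-type array 3 alone. Their signals lay between 98.0 and 234.5. Srebf1, Abca1 and Mylip had no probe detected on any array, so no level and no difference is given for them. Nr1h2, which encodes LXRbeta, is named only.

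**Figure D1:**
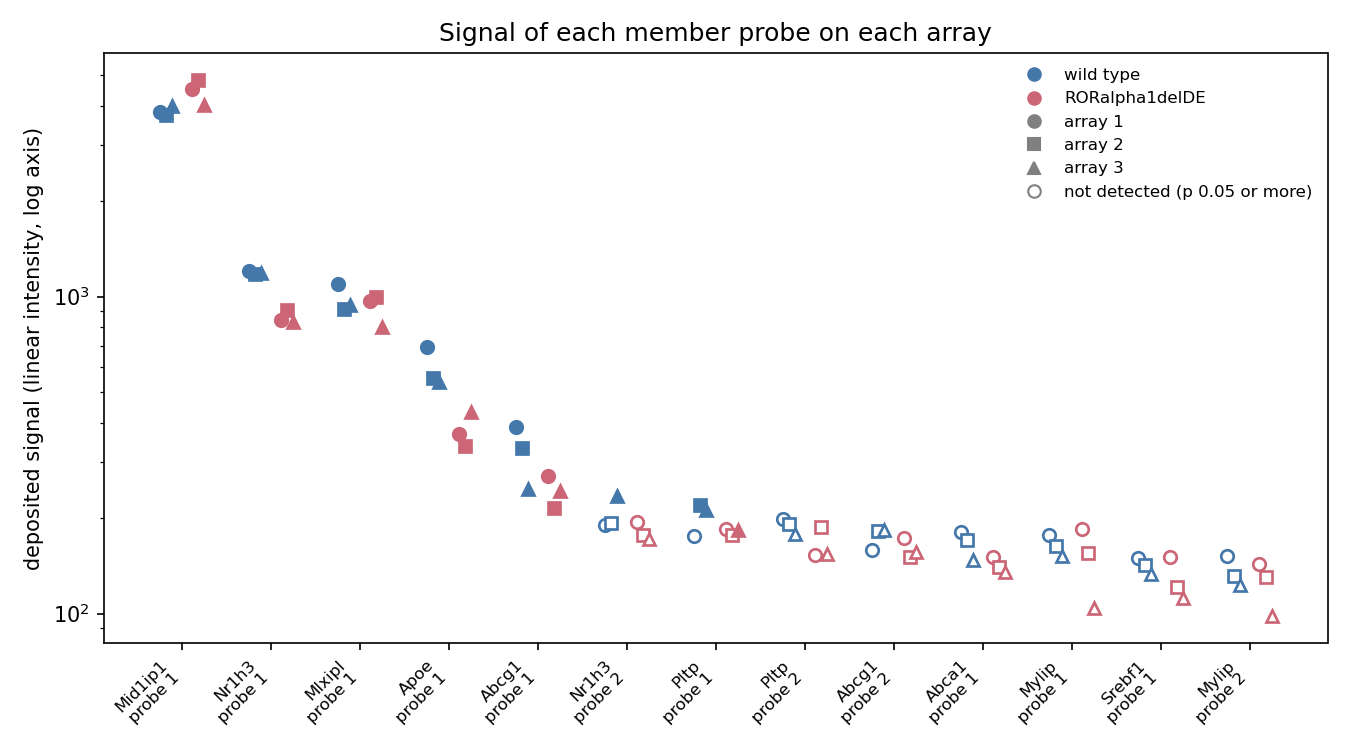
Deposited signal (linear intensity on a log axis) of the 13 member probes on each array, wild type in blue and RORalpha1delDE in red, with filled symbols where the probe was detected. Probes differ in binding strength, so heights compare arrays within a probe and not genes with each other. The probes of Srebf1, Abca1 and Mylip are open on all arrays, and the groups separate at the first probes of Nr1h3, Apoe and Mid1ip1.

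Nr1h3 encodes LXRalpha, the receptor form that is most abundant in liver, fat and macrophages. Its bright probe gave signals of 1203.0, 1182.0 and 1184.4 on the wild-type arrays and 844.6, 907.9 and 829.8 on the transgenic arrays. All 3 transgenic arrays lay below all 3 wild-type arrays. After normalisation the wild-type arrays read 9.83, 9.87 and 10.13 and the transgenic arrays 9.51, 9.64 and 9.62 on the log2 scale, again without overlap. With arrays 1 and 2 averaged, the level was 9.99 ± 0.20 in wild type and 9.60 ± 0.03 in transgenic samples (SD, n = 2 each). The difference of -0.40 ± 0.19 (log2, SE) corresponds to 0.76 times the wild-type level and had a 95% interval from -0.85 to 0.06. It did not pass the threshold (limma, adjusted p = 0.672), and it was -0.26 without wild-type array 3. The second Nr1h3 probe, with signals of 189.8, 193.5 and 234.5 in wild type and 194.6, 177.0 and 172.4 in the transgenic group, was too close to background to add to this.

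Apoe encodes apolipoprotein E, a ligand for lipoprotein receptors and an acceptor of exported cholesterol, known as an LXR target in macrophages and fat. Its signals were 694.7, 554.0 and 537.5 on the wild-type arrays and 368.3, 337.1 and 433.0 on the transgenic arrays. Every transgenic array was below every wild-type array, with the highest transgenic value on array 3. On the normalised log2 scale the wild-type arrays read 8.89, 8.51 and 8.73 and the transgenic arrays 7.86, 7.69 and 8.39. Averaged over samples, the Apoe level was 8.71 ± 0.02 for wild-type and 8.08 ± 0.44 for transgenic muscle (SD, n = 2 each). The small wild-type SD hides a gap of -0.38 (array 2 minus array 1) between the arrays that were averaged. The difference was -0.63 ± 0.25 (95% interval -1.23 to -0.03), or 0.647 times wild type. It had the smallest p of the 6 tested probes (limma, unadjusted p = 0.0429, adjusted p = 0.647), and 6.55% of all tested probes had a smaller one. The size depended on single samples: it was -0.94 without transgenic array 3 and -0.31 without transgenic arrays 1 and 2.

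The bases before the transcription start of the members without overlap between the groups are shown so that the hexamers bound by these receptors can be looked for. Windows of 250 bases before and 50 after each annotated start came from RefSeq (build GRCm38.p6), 15 windows for 9 of the 10 genes. The runs below hold the 250 bases before the start, 5′ to 3′ on the gene's strand. Capitals mark the hexamer GGGTCA, found once, in the Apoe run at position -28, counted back from the start. Apoe and Nr1h3 have several annotated starts, and the most upstream is shown for each. Apoe lies at chr7:19699189-19699438 on the minus strand, Nr1h3 at chr2:91195117-91195366 on the minus strand, and Mid1ip1, described further on, at chrX:10717115-10717364 on the plus strand.
Apoe: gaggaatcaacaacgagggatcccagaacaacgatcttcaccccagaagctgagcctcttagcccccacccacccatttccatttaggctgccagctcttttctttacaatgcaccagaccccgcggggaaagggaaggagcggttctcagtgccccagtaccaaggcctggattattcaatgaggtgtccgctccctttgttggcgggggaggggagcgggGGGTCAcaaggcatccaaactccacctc
Nr1h3: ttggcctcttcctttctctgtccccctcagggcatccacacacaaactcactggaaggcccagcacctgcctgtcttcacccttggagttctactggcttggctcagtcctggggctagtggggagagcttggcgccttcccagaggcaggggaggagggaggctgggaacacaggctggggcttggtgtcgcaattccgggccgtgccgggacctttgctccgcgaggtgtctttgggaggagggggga
Mid1ip1: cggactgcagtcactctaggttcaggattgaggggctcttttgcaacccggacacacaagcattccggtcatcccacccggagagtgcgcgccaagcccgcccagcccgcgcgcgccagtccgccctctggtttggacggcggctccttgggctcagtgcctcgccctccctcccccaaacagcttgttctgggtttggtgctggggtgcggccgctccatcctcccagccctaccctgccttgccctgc

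The hexamer AGGTCA, the core of both ROR and LXR elements, occurred on either strand in 16.3% of all 32851 windows and in 0 of the 15 member windows. GGGTCA was in 13.7% of all windows and in 1 member window, that of Apoe. The DR4 element bound by LXR with its partner, AGGTCA repeated in the same direction after a spacer of 4 bases, was in 0.0152% of all windows and in 0 of the member windows. The sterol element known from the LDL receptor promoter was in 0.0913% of all windows and in 0 of the member windows. Its looser form TCACNCCAC, which lies within it, was in 1.24% and in 1 window of Mlxipl. The E-box CACGTG, part of the element read by ChREBP, was in 7.15% of all windows and in windows of Abca1 and Mlxipl. These matches describe letters in short windows and are not binding sites.

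Of the sterol transporters, Abcg1 was detected on all 6 arrays by its brighter probe and on none by its second. The Abca1 probe was detected on none. Abcg1, which passes cholesterol from cells to high-density lipoprotein, gave signals of 387.4, 333.3 and 246.8 in wild type and 271.9, 214.7 and 243.1 in the transgenic group. Wild-type arrays 1 and 2 were highest, and the remaining arrays overlapped. On the log2 scale the level was 7.14 ± 0.57 in wild type and 6.80 ± 0.20 in transgenic samples (SD, n = 2 each). The difference of -0.34 ± 0.30 had an interval from -1.07 to 0.39 (limma, adjusted p = 0.788). Transgenic arrays 1 and 2, counted as 1 sample, themselves lay -0.74 apart (array 2 minus array 1). The difference of the groups was -0.74 without wild-type array 3 and 0.06 without wild-type arrays 1 and 2, so its direction rested on that sample. Abca1, which loads cholesterol onto lipid-poor apolipoprotein A-I, had signals of 180.5, 171.1 and 148.1 in wild type and 151.3, 139.9 and 135.0 in the transgenic group, none above background.

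Pltp encodes the phospholipid transfer protein of plasma, an LXR target in liver and macrophages. Its brighter probe passed detection on 2 wild-type arrays and 1 transgenic array, with signals of 175.1, 220.3 and 211.7 and of 184.2, 177.3 and 184.1. The groups overlapped. The difference was -0.21 ± 0.24 on the log2 scale (95% interval -0.79 to 0.37, limma, adjusted p = 0.833). Wild-type arrays 1 and 2 differed from each other by 0.82, more than the groups did, and the difference was 0.01 without wild-type array 3. The second Pltp probe was detected on no array.

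**Figure D2:**
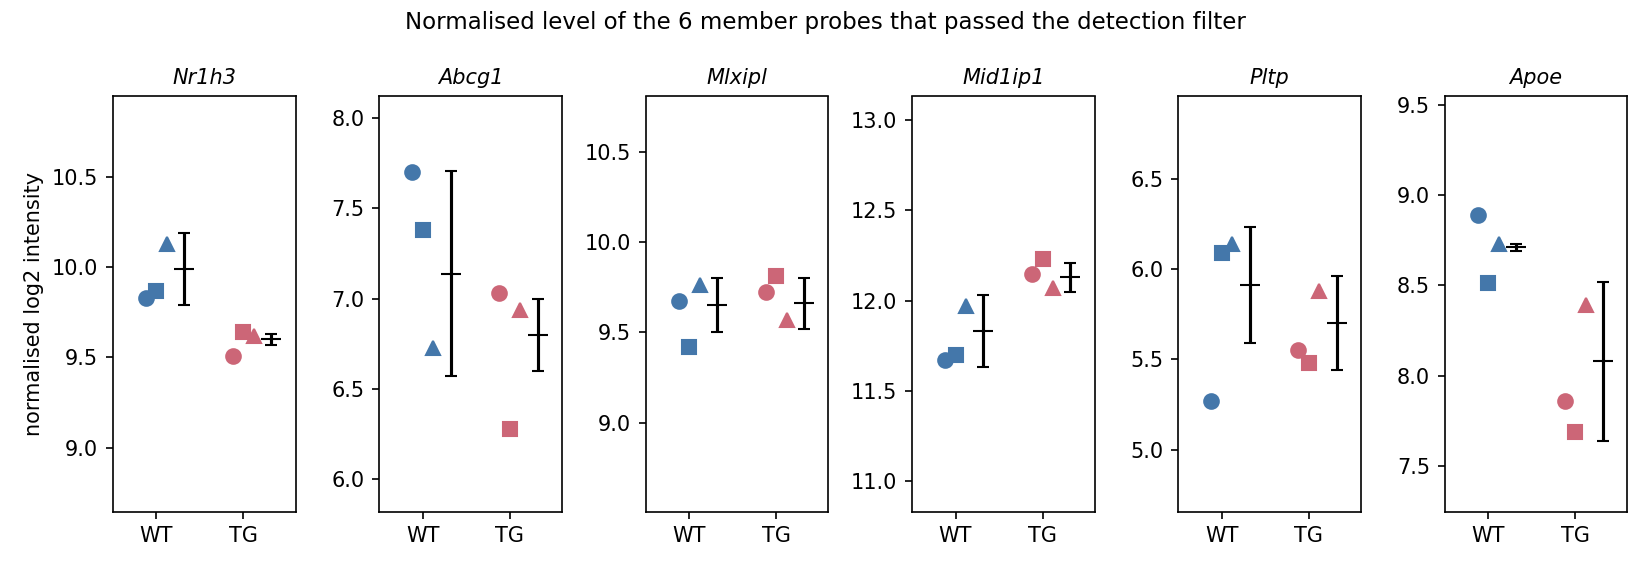
Normalised log2 intensity of the 6 tested probes in wild-type (WT) and RORalpha1delDE (TG) muscle, with circle, square and triangle for arrays 1, 2 and 3, and beside them the mean and SD of the 2 samples left after arrays 1 and 2 were averaged. The span of the vertical axis is the same in every panel. Nr1h3 and Apoe lie lower and Mid1ip1 higher in all 3 transgenic arrays, while Abcg1, Mlxipl and Pltp overlap.

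Among the lipogenic regulators, Srebf1 was not measurable here: its probe gave 149.9, 142.2 and 132.9 in wild type and 150.6, 120.9 and 111.8 in the transgenic group, with a lowest detection p-value of 0.67997. Mlxipl, the gene of ChREBP, gave 1093.3, 912.6 and 943.2 in wild type and 971.5, 999.6 and 800.2 in the transgenic group. The arrays interleaved. Its log2 level was 9.65 ± 0.15 in wild type and 9.66 ± 0.14 in transgenic samples (SD, n = 2 each), a difference of 0.01 ± 0.19 (limma, adjusted p = 0.991). The 95% interval from -0.45 to 0.47 reaches from 0.733 to 1.39 times the wild-type level, so changes within that range could not be told from none.

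Mid1ip1 encodes a small protein that binds acetyl-CoA carboxylase, the enzyme that makes malonyl-CoA, and promotes its assembly into active filaments. It was the tested member with the highest values in the transgenic group relative to wild type. Signals were 3824.1, 3746.4 and 4002.6 in wild type and 4515.2, 4826.9 and 4005.9 in the transgenic group. The groups did not overlap, but the gap between the highest wild-type and the lowest transgenic array was small. After normalisation the wild-type arrays read 11.67, 11.70 and 11.97 and the transgenic arrays 12.15, 12.23 and 12.07. The sample means were 11.83 ± 0.20 and 12.13 ± 0.08 (SD, n = 2 each). The difference of 0.30 ± 0.19, or 1.23 times wild type, had an interval from -0.17 to 0.77 (limma, adjusted p = 0.731). It was 0.15 without wild-type arrays 1 and 2.

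Mylip encodes the ubiquitin ligase, also called IDOL, that LXR induces and that sends receptors of the LDL receptor family to degradation. Both of its probes were below detection on all 6 arrays. Of the 3 receptors listed as its substrates, 2 had a probe and 1, Vldlr, the very low density lipoprotein receptor of muscle and fat, was measured. Its brightest probe read 14.27, 14.28 and 13.91 in wild type and 13.68, 13.69 and 13.54 in the transgenic group on the log2 scale, without overlap. The difference was -0.48 ± 0.20 (limma, adjusted p = 0.657), and its 3 other probes differed by -0.57, -0.58 and -0.76. Without wild-type arrays 1 and 2 the difference of the brightest probe was -0.30. None of the 4 probes passed the threshold.

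Of the 6 tested members, 0 passed an adjusted p under 0.05 in limma, where 0.00693% of 14420 tested probes did, and 1, Apoe, had an unadjusted p under 0.05, where 7.64% of probes did. Taking the 6 arrays as separate samples, which treats arrays 1 and 2 of a group as independent, also gave 0 members (0.374% of all probes). In that fit 3 members, Apoe, Mid1ip1 and Nr1h3, had an unadjusted p under 0.05, where 15% of all probes did, and their limma adjusted p-values were 0.183, 0.265 and 0.272. The transgenic arrays were all lower at 2 of the 6 probes and all higher at 1, while 9.76% and 12.1% of all tested probes showed this. In either direction it was 3 of the 6, beside 21.8% of all tested probes. The median difference of the 6 members was -0.28, with 4 below 0, beside a median of 0.018 over all 14420 tested probes. Of the 11335 tested probes with a gene symbol, 43.9% lay below 0. The members' median was -0.12 without wild-type array 3 or without background correction, -0.11 from the deposited log2 values, -0.14 without transgenic arrays 1 and 2, -0.18 without transgenic array 2 or without a filter, and stayed below 0 in all settings run. With 2 samples in each group the smallest p of an exact permutation test is 0.333. Since no label ties an array to a mouse of its own, the p-values cover only the spread among these samples, and that spread may be technical. Wild-type arrays lay at the first positions of the chip and transgenic arrays at the last, so position and genotype cannot be told apart.

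**Figure D3:**
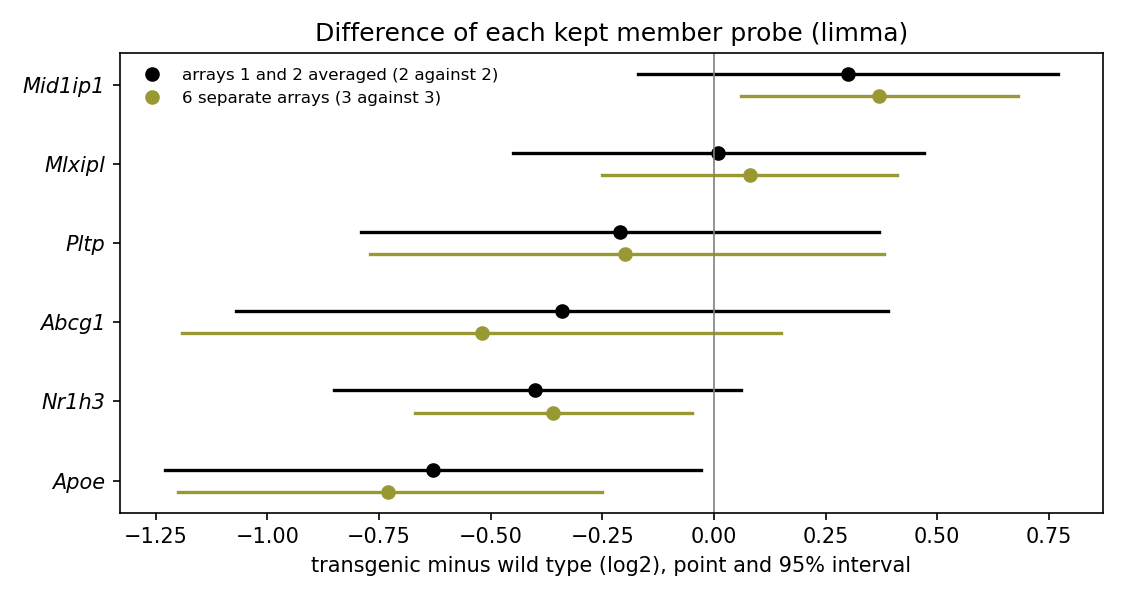
Difference between transgenic and wild-type muscle (log2) for the 6 tested probes, as point and 95% interval from limma, with arrays 1 and 2 averaged (black) and with 6 separate arrays (olive). In black the interval of Apoe alone leaves out 0, from -1.23 to -0.03. In olive those of Apoe, Nr1h3 and Mid1ip1 do so, and 0 members passed after adjustment over all probes in either fit.

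Genes around this pathway were read from lists by the brightest tested probe of each gene. Of 13 partners and coregulators of LXR, 7 were tested and 0 passed (0 also at an unadjusted p under 0.05 in limma), with a median of 0.13 and 1 below 0. The coactivators Ncoa2 and Ncoa1 differed by 0.32 ± 0.23 and 0.22 ± 0.17, and Rxrg, the retinoid X receptor form typical of muscle, by 0.28 ± 0.21 (log2, SE). Probes disagreed for Ncoa2, whose dimmer probe differed by -0.41, and for the retinoid X receptor gene Rxrb, at 0.13 for the brightest and -0.67 and -0.25 for the others. With a gene's probes averaged the list's median was 0.02. Of 8 genes of SREBP processing, 6 were tested, 0 passed, with or without adjustment, and the median was -0.08, with 4 below 0, and 0.01 without array 3 of either group. Gsk3b, a kinase that marks SREBPs for degradation, differed by -0.32 ± 0.17, Srebf2, which drives cholesterol synthesis, by -0.17 ± 0.18, and Insig2, which holds SREBPs in the endoplasmic reticulum, by 0.16 ± 0.18.

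Other LXR targets and genes of sterol handling had a median of 0.00 over 15 tested of 23, with 7 below 0, 0 past the threshold and 2 at an unadjusted p under 0.05. Apoc1, an apolipoprotein gene of the same cluster as Apoe, read 8.58, 9.01 and 9.12 in wild type and 5.36, 5.23 and 7.38 in the transgenic group on the log2 scale. It was detected on all 3 wild-type arrays and on 1 transgenic array, array 3, so its transgenic level lies mostly at background. The difference was -2.62 ± 0.63 (limma, adjusted p = 0.569), and a second probe differed by -1.33. As with Apoe, the transgenic arrays were all below wild type and array 3 was the highest of them. Osbpl1a, an oxysterol-binding protein of late endosomes, differed by -0.57 ± 0.20. Npc1, which exports cholesterol from lysosomes, differed by -0.67 ± 0.34, and its other probes by -1.01 and 0.54.

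Lipogenic targets of SREBP-1c and ChREBP lay mostly below 0: 13 of 14 tested genes, from 17 listed, did so, with a median of -0.46 and 6 at an unadjusted p under 0.05. Of these genes 0 passed with the samples averaged, and 4, Elovl6, Fasn, Scd1 and Acaca, fell with the 6 arrays taken separately (0.236% of all probes were called lower in that fit). With the samples averaged, Fasn, which makes palmitate, differed by -3.33 ± 0.39 and Elovl6, which lengthens it, by -2.79 ± 0.28, though Elovl6 was detected on 1 of the 3 transgenic arrays. Acaca, an acetyl-CoA carboxylase, differed by -1.08 ± 0.17 by its brightest probe and by 0.24 by another. Beside these values stand the 0.01 of Mlxipl and the 0.30 of Mid1ip1. Srebf1 had 1 probe, detected on no array, and where it lies in the transcript was not checked. Its level is therefore unknown, and a link between these regulators and the lipogenic values was not tested. Partners and targets of ChREBP and its relative MondoA had a median of -0.40 over 7 tested of 10, with 5 below 0, 0 past the threshold and 1 at an unadjusted p under 0.05. Thrsp, the paralogue of Mid1ip1 that is also on the lipogenic list, read 8.61, 8.34 and 8.66 in wild type and 6.69, 6.85 and 7.72 in the transgenic group. It differed by -1.32 ± 0.33 (limma, adjusted p = 0.569), opposite in sign to Mid1ip1, and the difference between the paralogues was not tested. Txnip, a glucose-responsive target, differed by -0.40 ± 0.18, and Ppp2r5c by -0.41 ± 0.21, with 0.01 at its second probe.

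**Figure D4:**
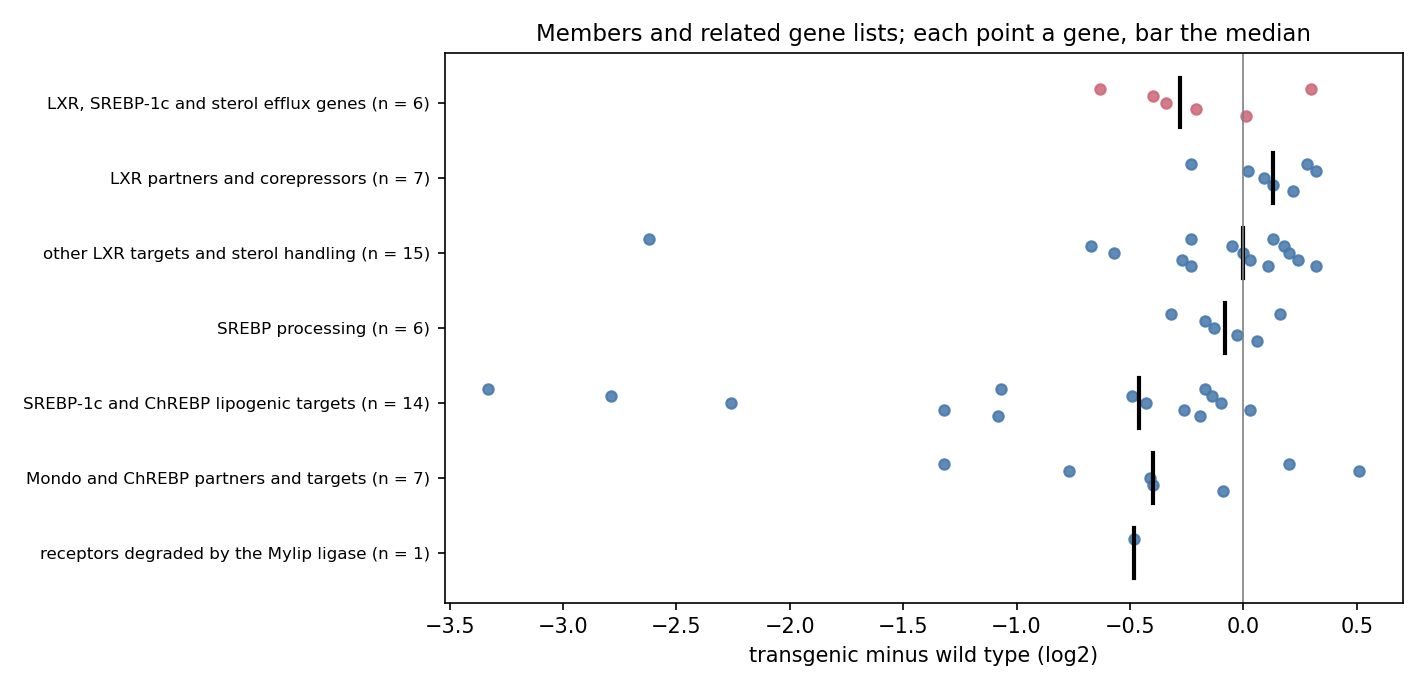
Difference between transgenic and wild-type muscle (log2) of every tested gene on the member list (red) and on 6 related lists (blue), with a bar at the median and n the number of genes tested. The member list lies between -0.63 and 0.30. The lipogenic targets reach down to -3.33 around a median of -0.46, and the other LXR targets, Apoc1 apart, spread around 0.00.

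In whole muscle, fewer cells of a type and less RNA per cell cannot be told apart, and several members are made by cells other than muscle fibres. Of 12 adipocyte markers, 7 were tested, 6 were below 0 and 1, Ucp1, fell, the 1 probe called of all 14420. Ucp1 gave signals of 5301.0, 5261.8 and 6587.4 in wild type and 173.1, 157.3 and 136.7 in the transgenic group. It was detected on 3 wild-type and 0 transgenic arrays. It thus passed the filter through wild type alone, and its transgenic level is background. The median of the 7 tested markers was -1.19. Relative to wild type, transgenic arrays 1 and 2 stood at -2.04 and array 3 at -0.50. Their summed linear level was 33262 to 34689 on the wild-type arrays and 26062 to 34788 on the transgenic arrays, but Car3 alone made up 53.5% to 94.9% of it. Without Car3 the sum was 10346 to 16149 in wild type, against 1426 to 3772 in the transgenic group. Ucp1 and Cidea were the most intense genes in this sum on every wild-type array and differed by -7.34 and -4.04. Pparg differed by -1.19 and Lipe by -0.31. On transgenic array 3, Adipoq read 11.05 on the log2 scale, within its wild-type range of 10.67 to 11.79. Cidec read 10.18 there, below its wild-type 10.62 to 10.76. A sum without Ucp1 and Cidea was not taken. Lep, Retn and Fabp4 were detected on no array. The most intense, Car3, Adipoq and Cidec, differed by 0.44, -1.13 and -1.46. Car3 read 14.18 to 14.92 on the log2 scale, near the muscle marker Myh2 at 13.86 to 14.72. Which cells made the Car3 RNA was not tested. Of 12 macrophage markers, 6 were tested, 0 were below 0 and 0 passed (2 at an unadjusted p under 0.05 in limma), with a median of 0.61, at 0.12 in transgenic arrays 1 and 2 and 1.20 in array 3, and 0.13 without transgenic array 3. Their summed level was 801 to 1072 in wild type, against 859 to 1792 in the transgenic group, and Itgam, Ctss and Aif1 were detected on no array. The 6 differences ran from 0.14 to 0.98, and the most intense markers, Lyz2, Mrc1 and C1qb, differed by 0.14, 0.37 and 0.53. Among the transgenic arrays, Apoe and Apoc1 were highest on array 3, as were all 6 tested macrophage markers and 3 of the 7 tested adipocyte markers (Adipoq, Car3 and Cidec). The other 4 adipocyte markers, Cidea, Pparg, Lipe and Ucp1, were not. Other lists showed the same trait. The fibroblast and matrix markers Col1a1, Col3a1, Pdgfra, Dcn and Lum were highest on array 3, and Col1a2 was not. So were the endothelial markers Cdh5, Vwf and Tie1, but not Pecam1, Kdr, Tek and Emcn. Of the lipogenic genes called with 6 separate arrays, Fasn and Scd1 were, and Elovl6 and Acaca were not. Thrsp was too. The share of all tested probes that were highest on array 3 was not counted, so these counts tie no gene to a cell type. Medians were 0.01 for 7 endothelial markers, 0.36 for 6 fibroblast and matrix markers and -2.01 for 6 slow-fibre markers, with 0 past the threshold in each, with or without adjustment (limma). The fibroblast median was -0.04 without wild-type array 3 and 0.14 without transgenic array 3, the slow-fibre median 0.62 without transgenic array 3, and the endothelial median -0.13 without wild-type array 3 and 0.17 without wild-type arrays 1 and 2. The part of these cells in the values of Apoe, Nr1h3 and Abcg1 was not tested, nor was it for Apoc1 and the lipogenic targets, Fasn and Elovl6 among them.

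**Figure D5:**
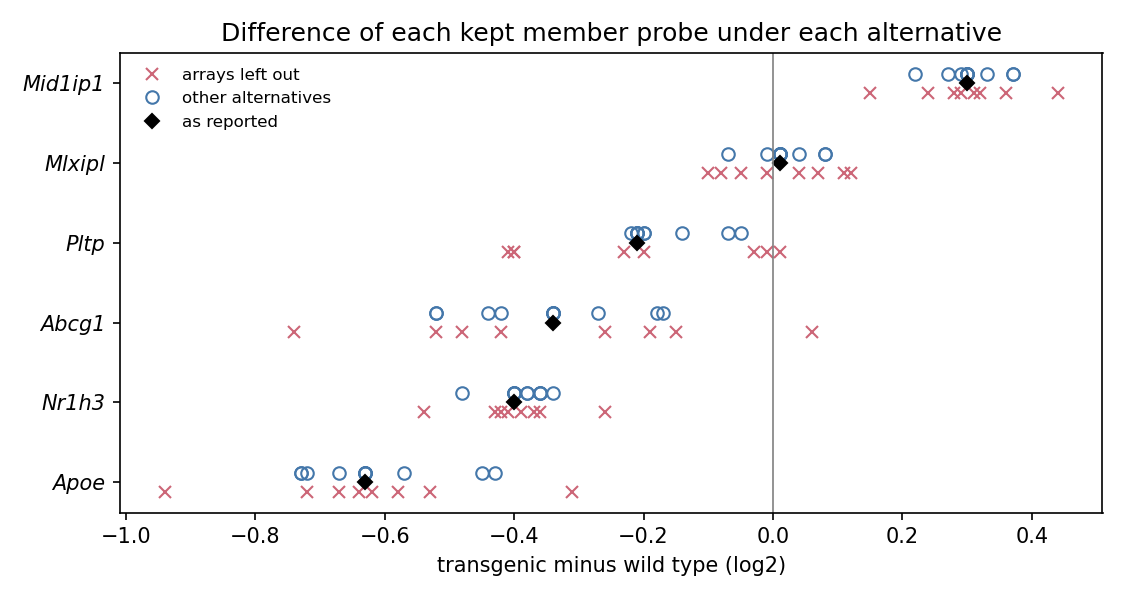
Difference between transgenic and wild-type muscle (log2) of the 6 tested probes as reported (black diamonds), with arrays left out (red crosses) and under the other alternatives (blue circles). Apoe, from -0.94 to -0.31, and Nr1h3, from -0.54 to -0.26, stayed below 0 and Mid1ip1, from 0.15 to 0.44, above it in all 19 alternatives, while Abcg1, Mlxipl and Pltp reached both sides.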

How the data were processed

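Expression in 6 arrays, 3 wild type and 3 RORalpha1delDE, was read from the authors' tables. Linear bead intensities were deposited and, per the submitters' processing notes, exported from BeadStudio 2.3.41, at a background setting not given in the sources used here. Values headed as p-value of detection per the file headers rose with signal, so they were read as 1 minus the p-value. The deposited log2 values equal the log2 signal less a constant per array and each probe's median, as found by setting them against the signals; array medians were -0.023 to 0.014.

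Signal rows were displaced against probe identifiers by 0 to 21 rows and were put back where their array-to-array differences met those of the log2 table (tolerance 0.002). Of 46632 probes, 46611 were matched, to within 2.1e-06, and 21 were not used. Spearman's rho of signal and detection value across probes was at most 0.0621 before and at least 0.997 after.

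Intensities were corrected by normexp with inferred negative controls, offset by 16 and quantile normalised (neqc, limma 3.58.1, R 4.3.3; rows were matched in Python 3.11.15). Probes detected on at least 3 arrays at p under 0.05 were kept (14420, 11335 with a symbol). Groups were compared by lmFit and eBayes, two-sided, adjusted by Benjamini-Hochberg over kept probes, threshold 0.05; the fit was tested on simulated data. The small number of arrays limits the precision.

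Symbols came from the platform annotation (29976 probes with 1, 10 with several, 16646 with none); 29921 were found in RefSeq and 0 changed. Members, lists, the averaging of arrays 1 and 2 and the tests were chosen with earlier results of these data known. Named genes were all member probes, and on each related list those past the threshold or else the 3 with the smallest p, and on marker lists up to 3 with the highest mean. Scd1, Ucp1, Rxrb, Cidea, Pparg, Lipe and the fibroblast and endothelial markers were named after their values were seen, as members of small counts. No promoter window was used for Abcg1. Alternatives covered the treatment of arrays, background, normalisation, filter, variance model and left-out arrays.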

Additional observations from a re-analysis of the deposited data

How the results depend on the processing

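The count of probes called, 1 of 14420 as reported (0 higher, 1 lower), was 54 with 6 separate arrays, 13 when the sample was a random block, 9 after an offset of 50, 8 when background was not corrected, and 3 after median centring or at an adjusted p under 0.10. It was 7 from the deposited log2 values, 10 when the variance followed intensity and 0 when only probes detected on all 6 arrays were tested, of which 919 had an unadjusted p under 0.05 (limma in each). Leaving out 1 array gave 1 to 9, the 9 without transgenic array 3. Leaving out wild-type arrays 1 and 2 together gave 2, and transgenic arrays 1 and 2 together 15. With the replicate block the 6 arrays gave 15 calls and the averaged samples 1. Same-numbered arrays deviated together with correlations of -0.0142, 0.0706 and 0.101. Array 1 of one group and array 2 of the other gave 0.11 and 0.125, but arrays 1 and 2 count as 1 sample. Array 3 of each group gave -0.116 to -0.0545 against arrays 1 and 2 of the other. These values do not settle whether the numbers pair the samples.

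Over 19 settings besides the reported one, 0 of the 113 member differences passed the threshold. Nr1h3, Apoe and Mid1ip1 kept their sign in all, with adjusted p of at least 0.272, 0.183 and 0.265. On each of 5 other scales, the raw signals included, their groups did not overlap. Abcg1 was 0.06 without wild-type arrays 1 and 2. Mlxipl changed sign to -0.07 with median centring, -0.01 with the deposited values, -0.10 and -0.08 without arrays 1 and 2 of wild type or of the transgenic group, and ran from -0.05 to 0.12 with 1 array left out. Pltp ran from -0.40 to 0.01 with 1 array left out.

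The medians of the members (-0.41 to -0.11), the LXR partners (0.02 to 0.25) and the SREBP processing genes (-0.16 to 0.01) varied. No setting moved them from the reported -0.28, 0.13 and -0.08 by more than the SD of the sample medians, 0.182, 0.174 and 0.093. In some settings each still changed by over 1.5 times. On the other related lists, moves past the list's own SD were these. Other LXR targets stood at -0.11 with median centring. Lipogenic targets stood at -0.35 both among probes detected on all 6 arrays and without a filter, and ran from -0.49 to -0.36 with 1 array left out. The Mondo and ChREBP list stood at -0.34 with 6 separate arrays and with the replicate block on them, -0.31 when background was not corrected, -0.50 after median centring, -0.32 from the deposited values, -0.12 without a filter, -0.09 without wild-type arrays 1 and 2, -0.20 with a gene's probes averaged, and ran from -0.45 to -0.19 with 1 array left out. Vldlr and Lrp8 together gave -0.13 without a filter. Where a value moved, the cause was not tested.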
